A study of Capra hircus with 24 samples.

Results

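The genes described here are 10 chemokines and cytokines of the hair follicle papilla, chosen by symbol: CXCL8, CCL2, CCL17, CXCL12, CXCL14, IL1A, IL6, IL11, IL33 and LIF. Of these, 9 matched a row by symbol among the 20326 genes of the deposited tables, and CCL2 was not analysed here. The genes, and the lists of other genes used below, were chosen with earlier results of these data known. Counts of calls and medians over them, set beside those of all genes, are therefore descriptions. The 9 genes were followed across 24 RNA-seq libraries of dermal papilla cells of cashmere goats (Capra hircus). The dermal papilla is a cluster of mesenchymal cells enclosed by the hair bulb, and its signals direct growth of the hair. Secondary follicles make the fine cashmere undercoat and primary follicles make the coarse guard hair. There were 8 groups of 3 libraries each: cells of secondary or of primary follicles, from female or from male goats, in June, labelled early anagen, or in October, labelled anagen. Anagen is the growth phase of the hair cycle. No treatment or genetic change is named for any group, and the labels do not say how the papilla cells were isolated or whether they were cultured. The libraries of a group are called biological replicates, with no statement that they came from separate animals or cultures, so the p-values reflect spread between libraries that may be technical. Each month was labelled with 1 growth stage, so month, stage and collection cannot be told apart.

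Chemokines are small secreted proteins that guide cell movement through receptors coupled to G proteins. CXCL8 draws neutrophils, CCL17 draws T cells that carry CCR4, CXCL12 acts through CXCR4 and is a steady product of many stromal cells, and CXCL14 is made by epithelia and some mesenchymal cells. IL1A and IL33 belong to the interleukin 1 family and are alarmins, proteins held in cells and released on damage. IL1A acts through IL1R1 and can drive NF-kB target genes such as CXCL8 and IL6 in fibroblasts, while IL33 acts through IL1RL1. IL6, IL11 and LIF share the signalling chain IL6ST (gp130), which activates JAK kinases and STAT3. In skin, papilla cells are known to secrete factors that act on the neighbouring epithelium, and IL6 and IL1A have been studied as inhibitors of hair growth.

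Each library was deposited as a normalised signal per gene, given to 2 decimals, and not as read counts. Library totals ran from 959766 to 1045876, and the sequencing depth behind them is unknown. Pearson's r of log2(value + 1) between libraries of 1 group was 0.993 to 0.997, and between libraries of different groups 0.954 to 0.992. The closest groups were primary and secondary October males, at 0.991 to 0.992. The papilla markers VCAN (205.83 to 541.22), RSPO3 (134.32 to 282.59) and LEF1 (8.06 to 14.68) were present in all 24 libraries. CORIN reached at most 0.34 and HHIP at most 0.03, ALPL reached 1 in 3 libraries, and SOX2 averaged 0.26 to 0.33 in both secondary June groups and secondary October females against 12.4 to 15.9 in the other 5 groups. The male labels could not be checked, because SRY was the only Y-linked gene of a list of 7 that matched a row, and it stood at 0 in all 24 libraries. Whether values are scaled by transcript length is not given in the sources used here, so levels are compared between groups and not between genes.

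Differences below are differences of mean log2(value + 1) from 1 limma fit of all 24 libraries, each with its standard error (SE). A call means that the Benjamini-Hochberg adjusted p over the 13049 tested genes was under 0.05. Folds are ratios of group means of the signal itself. All 9 genes reached the level for testing, a value of at least 1 in 3 libraries, but CXCL14 did so through 4 libraries alone, 3 of secondary October females and 1 of secondary June males, so it passed only through groups where it is high. Its differences and calls, with their adjusted p-values, are therefore given as a description only. Counts of the 9 genes called in a comparison are followed by the counts over the other 8 genes. Every group enters several comparisons, so comparisons that share a group are not independent.

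**Figure D1:**
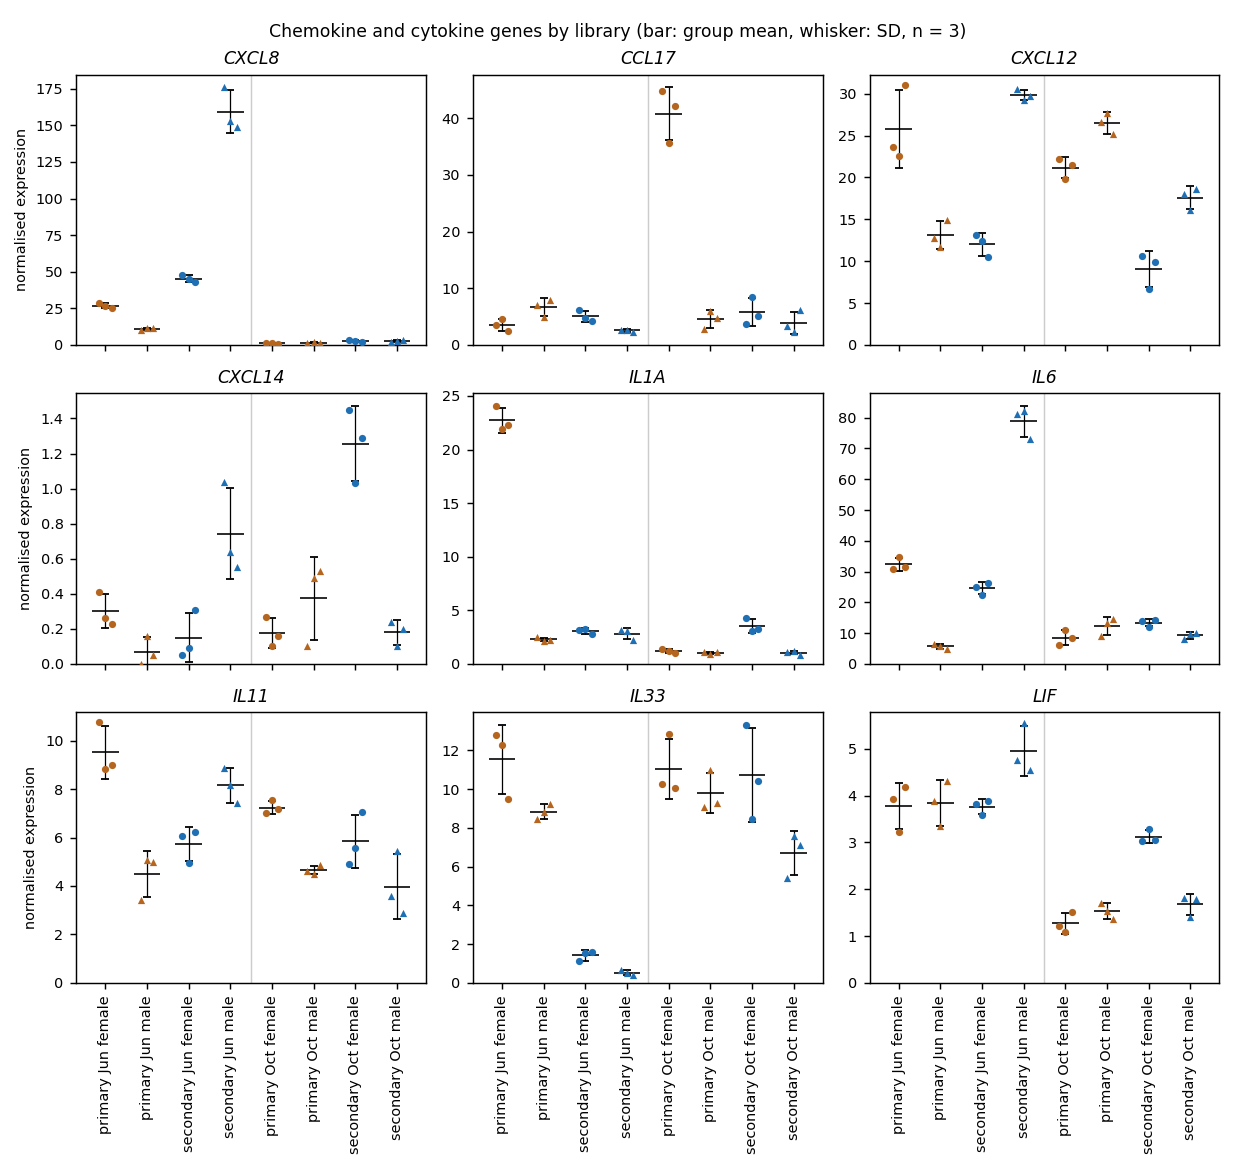
Normalised expression signal of the 9 genes in each of the 24 libraries, 1 panel per gene; orange marks primary and blue secondary follicles, circles females and triangles males, bars are group means and whiskers SD (n = 3). CXCL8 is highest in secondary June males (148.67 to 175.96) and low in all October groups, IL1A stands out in primary June females and CCL17 in primary October females.

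CXCL8, the neutrophil chemokine, was higher in June than in October in both follicle types and sexes, and higher in secondary than in primary papilla cells in each month and sex. In June its signal was 175.96, 153.17 and 148.67 in secondary males, and 47.57, 45.25 and 42.90 in secondary females. Primary females gave 28.91, 26.43 and 25.34, and primary males 10.41, 11.53 and 11.55. The 4 June groups did not overlap with each other or with any October group. In October the signal was 3.25, 2.41 and 2.16 in secondary females, 2.32, 2.85 and 3.37 in secondary males, 1.00, 1.31 and 0.77 in primary females, and 1.17, 1.75 and 1.56 in primary males. Within a follicle type the October libraries of the sexes overlapped, while no secondary library reached down to a primary one of the same sex.

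From June to October the mean of CXCL8 fell 56.0-fold in secondary males, 17.4-fold in secondary females, 26.2-fold in primary females and 7.47-fold in primary males. The log2 differences were -5.39 (SE 0.12, adjusted p = 3.61e-20), -3.69 (adjusted p = 3.98e-17), -3.79 (adjusted p = 2.98e-17) and -2.29 (adjusted p = 1.18e-13) in that order. In secondary against primary cells, June males differed by 3.72 (SE 0.12, adjusted p = 1.41e-17), a 14.3-fold ratio, and June females by 0.73 (adjusted p = 1.77e-05), a 1.68-fold ratio. In October the difference was 0.83 in females and 0.62 in males (adjusted p = 4.73e-06 and 0.000428). With a pseudocount of 0.1 the October female difference was 1.27, since adding 1 compresses low values. The order of the sexes was opposite in the June follicle types: males were higher in secondary cells by 1.79 and lower in primary cells by 1.20 (males against females, -1.20, adjusted p = 1.27e-08). In bulk samples such as these, fewer cells of a type and less RNA per cell cannot be told apart.

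IL6, which signals through IL6R and IL6ST, was also highest in secondary June males, and its change with month had opposite directions in primary females and primary males. Secondary June males gave 81.19, 82.29 and 72.96, primary June females 30.81, 34.78 and 31.58, and secondary June females 25.03, 22.40 and 26.16. Primary June males had the lowest mean, at 6.42, 5.72 and 4.82, and overlapped with primary October females. The 3 higher June groups did not overlap with each other or with any other group. October means ran from 8.50 ± 2.48 (SD, n = 3) in primary females to 13.4 ± 1.18 in secondary females, with overlap between neighbours in that order.

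In June males the mean of IL6 in secondary cells was 13.9-fold that in primary cells, a log2 difference of 3.59 (SE 0.15, adjusted p = 3.34e-15). In June females it was lower in secondary cells, by 0.39 on the log2 scale (-0.39, adjusted p = 0.0389), and this call was not stable. It was lost with a pseudocount of 0.1 (adjusted p = 0.0529), without a filter on low values (0.0659), or without any 1 of secondary female replicates 1 and 2 or primary female replicates 1, 2 and 3 (-0.42 to -0.33, adjusted p 0.0549 to 0.132). From June to October IL6 fell in secondary males (-2.97, adjusted p = 1.34e-13), primary females (-1.84, adjusted p = 1.08e-09) and secondary females (-0.82, adjusted p = 0.000103). It rose in primary males, by 0.99 (SE 0.15, adjusted p = 9.08e-06), from a mean of 5.65 to 12.3. The difference between the sexes in this change was itself called, at 2.83 in primary cells (adjusted p = 3.43e-10) and -2.14 in secondary cells (adjusted p = 3.63e-08).

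IL11, another ligand of the IL6ST chain, varied over a narrower range. Its highest groups were primary June females, at 10.76, 8.81 and 8.98, and secondary June males, at 8.89, 8.16 and 7.44, which overlapped. Its lowest were secondary October males, at 3.59, 5.46 and 2.87, which overlapped with primary males and secondary females of both months. IL11 was lower in secondary than in primary June females (-0.64, SE 0.15, adjusted p = 0.00104) and higher in secondary than in primary June males (0.75, adjusted p = 0.000151). Over the months it fell in secondary males (-0.91, adjusted p = 1.62e-05). The other 3 month differences were not called, with 95% intervals of -0.30 to 0.33 in secondary females, -0.66 to -0.04 in primary females and -0.25 to 0.37 in primary males. In primary females the difference was -0.35 (adjusted p = 0.0577), and the June and October libraries did not overlap. A fit of the primary female groups alone called it (adjusted p = 0.0139).

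LIF, which acts through LIFR with IL6ST, had a higher mean in June than in October in all 4 pairings of follicle type and sex, and the difference was called in 3 of them. In secondary June males it stood at 4.75, 5.55 and 4.54, and the other June groups lay together at 3.23 to 4.30. In October, secondary females gave 3.03, 3.28 and 3.06, apart from secondary males at 1.82, 1.41 and 1.80, primary males at 1.71, 1.54 and 1.37 and primary females at 1.21, 1.09 and 1.52. LIF fell from June to October in secondary males (-1.15, SE 0.097, adjusted p = 7.94e-10), primary females (-1.07, adjusted p = 4.97e-09) and primary males (-0.93, adjusted p = 3.41e-08). In secondary females the difference was -0.21 (adjusted p = 0.0796, 95% interval -0.41 to -0.01). The June and October libraries of secondary females did not overlap, and a fit of these groups alone called the difference (adjusted p = 0.0473). In October females LIF was 2.45-fold higher in secondary than in primary cells (0.86, adjusted p = 1.9e-07).

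**Figure D2:**
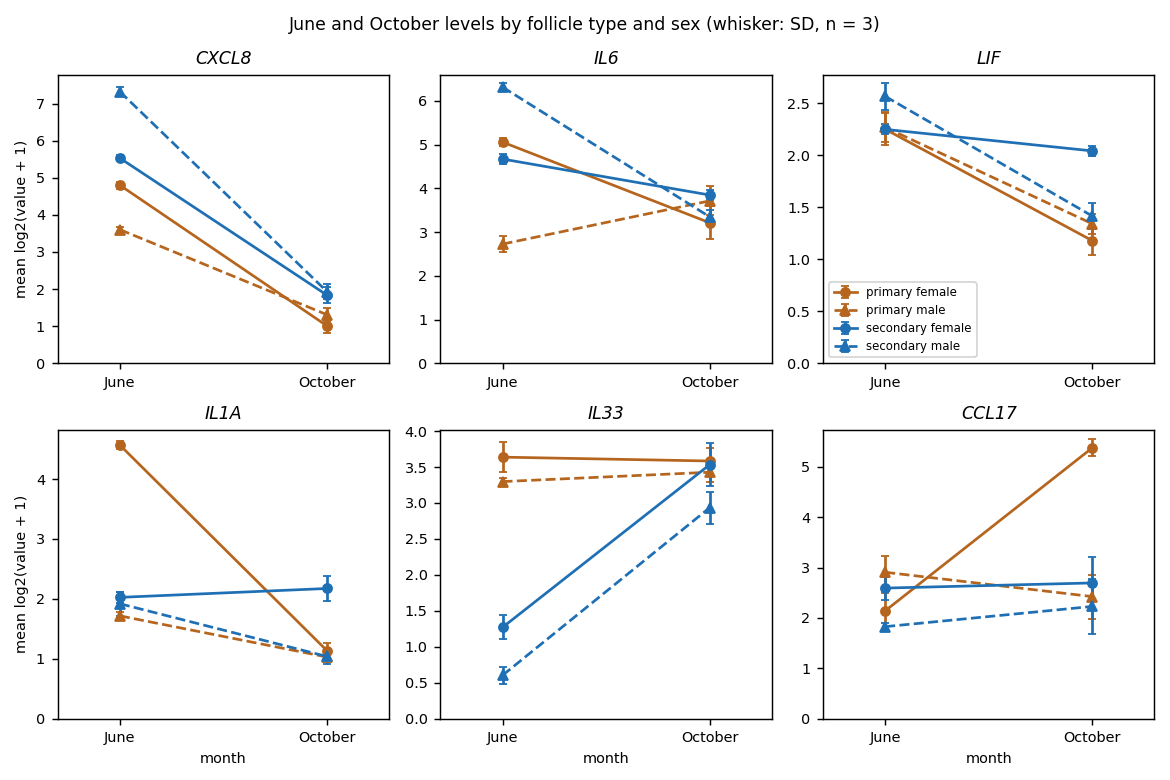
Mean log2(value + 1) in June and October (n = 3 libraries a point) for CXCL8, IL6, LIF, IL1A, IL33 and CCL17, with 1 line for each follicle type and sex. All 4 lines of CXCL8 go down, 1 line of IL6 (primary males) goes up while the other 3 go down, and IL33 goes up in the secondary lines.

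IL1A, the alarmin that acts through IL1R1, was set apart by 1 group. Primary June females gave 24.07, 21.88 and 22.30, and the highest value in the other 21 libraries was 4.30. The secondary June groups and secondary October females overlapped, at 2.21 to 4.30, and primary June males followed at 2.18 to 2.48. The lowest groups were primary October females (1.02 to 1.39), primary October males (0.95 to 1.10) and secondary October males (0.86 to 1.17), which overlapped with each other.

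Against primary June females, IL1A was 7.40-fold lower in secondary June females (log2 difference -2.54, SE 0.11, adjusted p = 4.39e-15), 9.95-fold lower in primary June males (-2.85, adjusted p = 4.56e-16) and 19.0-fold lower in primary October females (-3.43, adjusted p = 2.98e-17). In males IL1A fell from June to October in both follicle types, by 0.88 in secondary cells (-0.88, adjusted p = 2.12e-07) and by 0.69 in primary cells (-0.69, adjusted p = 8.12e-06). With a pseudocount of 0.1 these 2 differences were -1.32 and -1.07. Keratinocytes are a known source of IL1A. The summed signal of 8 keratinocyte markers was 4.46 to 5.31 in primary June females, among the lowest of the series, and 273.2 to 299.0 in secondary October females, where IL1A averaged 3.54 ± 0.671 (SD, n = 3). The part of keratinocytes in the IL1A differences was not tested.

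IL33, the ligand of IL1RL1, was low in secondary June cells and higher in every other group. Secondary June females gave 1.11, 1.56 and 1.59 and secondary June males 0.64, 0.52 and 0.40. The remaining 18 libraries ran from 5.41 to 13.31, so no library of the 2 low groups came near another group. The highest groups, primary June females (9.51 to 12.80), primary October females (10.05 to 12.83) and secondary October females (8.46 to 13.31), overlapped with each other and with primary October males.

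In June IL33 was 8.13-fold lower in secondary than in primary females and 17.0-fold lower in secondary than in primary males (-2.37 and -2.70, SE 0.14, adjusted p = 1.95e-12 and 9.86e-14). From June to October it rose 7.56-fold in secondary females and 12.9-fold in secondary males (2.26 and 2.33, adjusted p = 4.76e-12 and 1.68e-12). In primary cells the month differences were -0.05 in females and 0.13 in males (adjusted p = 0.772 and 0.443), with 95% intervals of -0.34 to 0.24 and -0.16 to 0.42. The difference between follicle types in the month change was called in both sexes, at 2.32 in females (adjusted p = 1.98e-09) and 2.20 in males (adjusted p = 3.99e-09, and 3.32 with a pseudocount of 0.1). In October the follicle types differed by -0.05 in females (adjusted p = 0.808) and by -0.49 in males (adjusted p = 0.014). The male call was lost without secondary October male replicate 1 or primary October male replicate 2 (-0.42 to -0.37, adjusted p 0.0772 to 0.104).

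**Figure D3:**
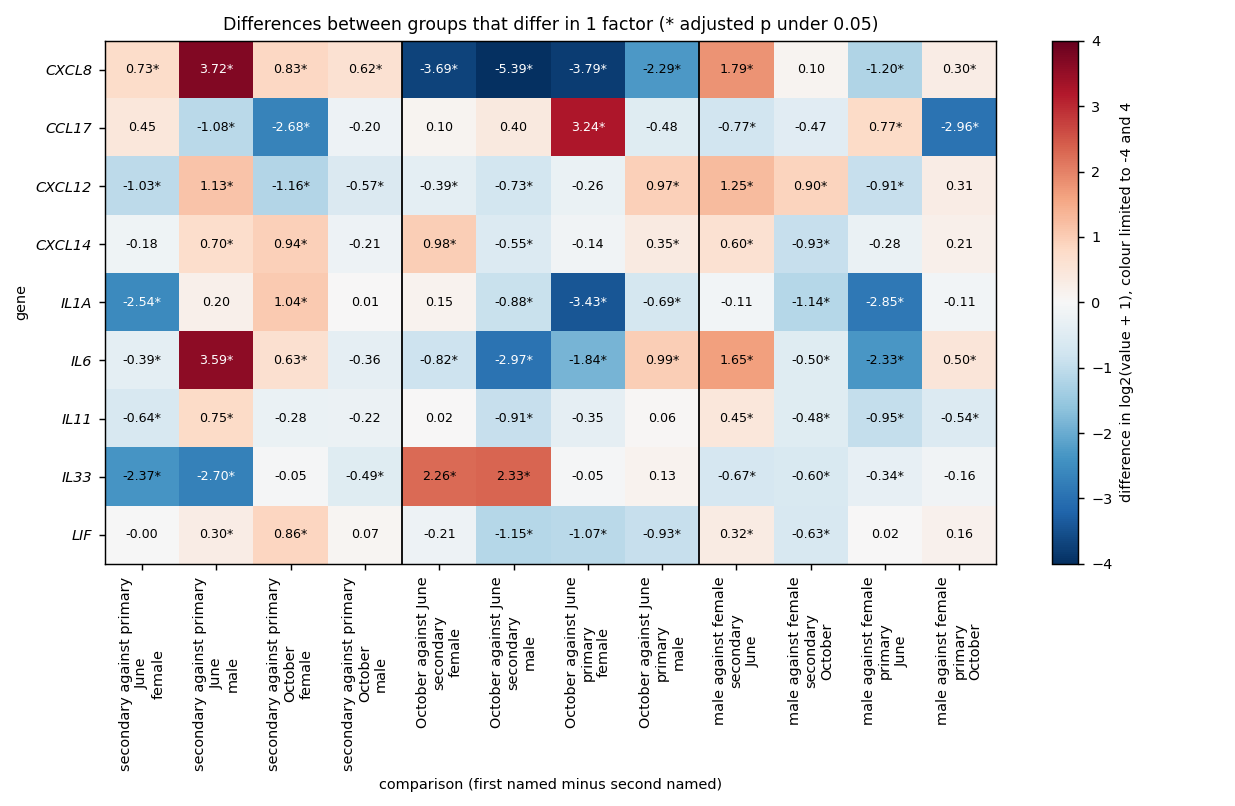
Log2 differences of the 9 genes in the 12 pairwise comparisons as a heat map, with an asterisk on each call (adjusted p below 0.05). CXCL8 is higher in secondary cells in all 4 comparisons of follicle type (0.62 to 3.72) and lower in October in all 4 comparisons of month (-5.39 to -2.29), and no other gene keeps 1 called direction through all 4 of either kind.

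CCL17, the ligand of CCR4, was high in primary October females alone. That group gave 44.76, 35.60 and 42.11, and the other 21 libraries ran from 2.34 to 8.46. The other 7 groups overlapped with their neighbours in order of their means, from 6.62 ± 1.58 (SD, n = 3) in primary June males down to 2.55 ± 0.182 in secondary June males. The primary October female mean was 11.7-fold that of primary June females (log2 difference 3.24, SE 0.28, adjusted p = 8.73e-09), 9.02-fold that of primary October males (males against females -2.96, adjusted p = 4.32e-08) and 7.09-fold that of secondary October females (secondary against primary -2.68, adjusted p = 1.6e-07). In June males CCL17 was lower in secondary than in primary cells (-1.08, adjusted p = 0.00234).

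CXCL12, the ligand of CXCR4 and ACKR3, was present in every library and differed between follicle types in all 4 comparisons, in directions that depended on sex in June. In June females it was lower in secondary cells, at 13.10, 12.41 and 10.49, than in primary cells, at 23.61, 22.58 and 31.06. In June males it was higher in secondary cells, at 30.50, 29.25 and 29.71, than in primary cells, at 12.78, 11.71 and 14.89. In October it was lower in secondary cells of both sexes, with means of 9.08 ± 2.14 against 21.2 ± 1.26 in females and 17.6 ± 1.34 against 26.5 ± 1.3 in males (SD, n = 3). No library of one follicle type overlapped with the other in any of these 4 pairs.

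The log2 differences of CXCL12 between secondary and primary cells were -1.03 in June females, 1.13 in June males, -1.16 in October females and -0.57 in October males (SE 0.13, adjusted p = 4.71e-07, 7.04e-08, 1.14e-07 and 0.00241). Over the months CXCL12 rose in primary males by 0.97 (adjusted p = 9.69e-07) and fell in secondary males by 0.73 (-0.73, adjusted p = 3.44e-05). In secondary females the difference of -0.39 (adjusted p = 0.0142) was lost without secondary June female replicate 1 (adjusted p = 0.0671) or secondary October female replicate 2 (-0.20, adjusted p = 0.151), and the libraries of these groups overlapped.

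CXCL14 was near the lower end of the deposited values, and its highest groups were secondary October females, at 1.45, 1.03 and 1.29, and secondary June males, at 1.04, 0.64 and 0.55. These overlapped with each other and with no other group. The other 6 groups lay between 0.00 and 0.53. The log2(value + 1) scale compresses such values: CXCL14 was higher in secondary than in primary October females by 0.94, or 2.33 with a pseudocount of 0.1, and in secondary than in primary June males by 0.70, or 2.38. From June to October it differed by 0.98 in secondary females (2.57 with 0.1) and by -0.55 in secondary males (-1.58 with 0.1). Males against females in primary June cells gave -0.28, which was not called, and -1.32 with 0.1, which was (adjusted p = 0.0178). Secondary October females also had the highest keratinocyte marker sum, 273.2 to 299.0, led by KRT5 and KRT14, and its part in the CXCL14 difference was not tested. In secondary June males that sum was 4.17 to 4.54.

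Taken by follicle type, the 9 genes showed their largest number of calls in June males. There 8 of 9 were called, against 59.6% of all tested genes. Those higher in secondary cells were 6 (CXCL8, CXCL12, CXCL14, IL6, IL11 and LIF; background 30.7%) and those lower were 2 (CCL17 and IL33; background 28.9%), with a median over the 9 genes of 0.70 against 0.01 over all genes. Without CXCL14, 7 of 8 were called there, with a median of 0.52. In June females 6 of 9 were called (background 49.3%), of which 1 was higher (CXCL8; background 25%) and 5 were lower (CXCL12, IL1A, IL6, IL11 and IL33; background 24.3%), with a median of -0.39 against 0.00. Without CXCL14, 6 of 8 were called, with a median of -0.52. In October females 7 of 9 were called (background 35.5%), 5 higher (CXCL8, CXCL14, IL1A, IL6 and LIF; background 18.3%) and 2 lower (CCL17 and CXCL12; background 17.2%), with a median of 0.63 against 0.00. Without CXCL14, 6 of 8 were called, with a median of 0.29. In October males 3 of 9 were called (background 18.5%), 1 higher (CXCL8; background 10.9%) and 2 lower (CXCL12 and IL33; background 7.63%), with a median of -0.21 against 0.01. Without CXCL14, 3 of 8 were called, with a median of -0.21. The LIF call in June males (0.30, adjusted p = 0.0114) was lost without secondary male replicate 2 or primary male replicate 2 (adjusted p 0.0767 and 0.0777).

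The difference between the sexes in these comparisons was tested directly. In June 7 of 9 genes were called (background 41.2%), led by IL6 at 3.98, CXCL8 at 2.99 and IL1A at 2.75, and without CXCL14 6 of 8. The 2 not called were IL33 (-0.33) and LIF (0.30), of which IL33 was called with a pseudocount of 0.1 (-0.93, adjusted p = 0.00438) and LIF with libraries scaled to a common total (0.38, adjusted p = 0.0321). In October 6 of 9 were called (background 26.7%), all but CXCL8, IL11 and IL33, and without CXCL14 5 of 8, with the largest difference in CCL17 at 2.49 (SE 0.39, adjusted p = 6.31e-05). The CXCL12 difference of 0.59 was lost without secondary October female replicate 2 (0.41, adjusted p = 0.0529).

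Over the months, secondary males had the most calls. October was lower than June for 7 genes there (all but CCL17 and IL33; background 31.2%) and higher for 1 (IL33; background 25.3%), 8 of 9 in all (background 56.5%), with a median of -0.88 against -0.01 over all genes. Without CXCL14, 7 of 8 were called there, with a median of -0.90. In secondary females 5 of 9 were called (background 51.3%), 2 higher in October (CXCL14 and IL33; background 24.2%) and 3 lower (CXCL8, CXCL12 and IL6; background 27.1%), with a median of 0.02 against -0.01. Without CXCL14, 4 of 8 were called and the median was -0.10. In primary females 5 of 9 were called (background 48.2%), 1 higher (CCL17; background 22.7%) and 4 lower (CXCL8, IL1A, IL6 and LIF; background 25.6%), with a median of -0.35 against 0.00. Without CXCL14, 5 of 8 were called and the median was -0.71. In primary males 6 of 9 were called (background 55.5%), 3 higher (CXCL12, CXCL14 and IL6; background 26%) and 3 lower (CXCL8, IL1A and LIF; background 29.5%), with a median of 0.06 against 0.00. Without CXCL14, 5 of 8 were called and the median was -0.21. The CXCL14 call in primary males (0.35, adjusted p = 0.0245) was lost without any 1 of primary June male replicates 1 and 3 or primary October male replicates 2 and 3 (0.26 to 0.34, adjusted p 0.0617 to 0.127). With a pseudocount of 0.1 that difference was 1.42.

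The month change differed between the sexes for 6 of 9 genes in secondary cells (background 37.7%) and for 6 of 9 in primary cells (background 36.8%), or 5 of 8 in each without CXCL14. In secondary cells the 6 had a more negative change in males. Of all genes called in that test 45.8% had a more positive one, or 28.3% with libraries scaled to a common total. With a pseudocount of 0.1 IL33 was called there too, in the positive direction (0.63, adjusted p = 0.0465). In primary cells the largest such difference was that of CCL17, at -3.72 (SE 0.39, adjusted p = 2.31e-07). The month change differed between follicle types for 6 of 9 genes in females (background 40.2%) and 6 of 9 in males (background 43.9%), or 5 of 8 in each sex without CXCL14. The largest of these were IL1A in females, at 3.58, and IL6 in males, at -3.95 (adjusted p = 1.15e-14 and 1.06e-12).

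Males and females of the same follicle type and month also differed. In secondary June cells 8 of 9 genes were called (background 39.5%), 6 higher in males (CXCL8, CXCL12, CXCL14, IL6, IL11 and LIF; background 20.9%) and 2 lower (CCL17 and IL33; background 18.6%), with a median of 0.45 against 0.01 over all genes. Without CXCL14, 7 of 8 were called there. In primary June cells 7 of 9 were called (background 45.4%), 1 higher in males (CCL17; background 23.1%) and 6 lower (CXCL8, CXCL12, IL1A, IL6, IL11 and IL33; background 22.3%), with a median of -0.91 against 0.00. Without CXCL14, 7 of 8 were called, with a median of -0.93. In secondary October cells 7 of 9 were called (background 40.4%), 1 higher in males (CXCL12; background 19.5%) and 6 lower (CXCL14, IL1A, IL6, IL11, IL33 and LIF; background 20.9%), with a median of -0.50 against -0.01. Without CXCL14, 6 of 8 were called. In primary October cells 4 of 9 were called (background 33.6%), 2 higher in males (CXCL8 and IL6; background 15.8%) and 2 lower (CCL17 and IL11; background 17.8%), with a median of 0.16 against 0.00. Without CXCL14, 4 of 8 were called and the median was 0.03.

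Several calls between the sexes were lost when 1 library was left out. In secondary June cells CCL17 (-0.77) was lost without female replicate 1 or 2 or any 1 male replicate (adjusted p 0.0638 to 0.128), IL11 (0.45) without female replicate 2 or male replicate 1 (0.0737 to 0.104), and LIF (0.32) without male replicate 2 (0.0816). In secondary October cells IL6 (-0.50) was lost without male replicate 1 (0.0697), and IL11 (-0.48) without female replicate 3 or male replicate 3 (-0.36 to -0.32, 0.0806 to 0.107). In primary June cells CCL17 (0.77) was lost without female replicate 1 or 3 or male replicate 1 or 3 (0.0625 to 0.139). IL33 in primary June cells (-0.34, adjusted p = 0.0488) and CXCL8 in primary October cells (0.30, adjusted p = 0.0498) were at the threshold and were lost without any 1 of 16 and of 17 of the 24 libraries (adjusted p 0.0505 to 0.179 and 0.0528 to 0.216). Among the compared libraries these were all but primary June female replicate 3 for IL33, and female replicates 1 and 3 and male replicates 2 and 3 for CXCL8. IL6 in primary October cells (0.50, adjusted p = 0.0137) was lost in a fit of the compared groups alone (adjusted p = 0.125). It was also lost without female replicate 1 (log2 difference 0.305, adjusted p = 0.126) or male replicate 2 or 3 (adjusted p = 0.0631 and 0.0928).

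Of 20 receptor genes listed for these ligands and their relatives, 18 matched a row and 14 were tested. For CXCL8, CXCR1 ranged from 0.10 to 1.79 over the 24 libraries and CXCR2 reached at most 0.61, below the level for testing. For CXCL12, the signalling receptor CXCR4 ranged from 0.00 to 2.20 and the scavenging receptor ACKR3 from 52.42 to 120.39, and both were highest on average in secondary June males (2.10 and 114.1). CXCR4 was higher in secondary than in primary June males by 1.02 and ACKR3 by 0.44, and both fell in secondary males from June to October (-1.38 and -1.01), as CXCL12 did. CCR4, the CCL17 receptor, ranged from 0.29 to 1.86 and averaged 1.05 in primary October females, where CCL17 was high, and 1.61 in secondary October females. ACKR1, which binds several inflammatory chemokines without signalling, reached at most 1.41.

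For IL1A, the receptor IL1R1 ranged from 11.25 to 31.12 and its partner IL1RAP from 3.88 to 10.12. IL1R1 was lower in males than in females in all 4 comparisons (-1.09 to -0.42, all called). The antagonist IL1RN stood at 4.12 to 6.39. The IL33 receptor IL1RL1 was at most 0.13 and listed at 0 in 18 of 24 libraries. For the IL6ST ligands, IL6ST ranged from 24.33 to 52.25, IL11RA from 28.64 to 58.92, IL6R from 0.34 to 2.4 and LIFR from 0.58 to 1.46. In June, IL6ST was lower in secondary cells of both sexes (-0.69 in females and -0.51 in males), and IL11RA fell from June to October in all 4 comparisons (-0.50 to -0.23).

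Of the 14 receptors tested, October against June gave 3 higher and 10 lower in secondary males, where 25.3% and 31.2% of all tested genes were. It gave 1 and 8 in primary females (background 22.7% and 25.6%), 2 and 7 in primary males (26% and 29.5%) and 3 and 3 in secondary females (24.2% and 27.1%). For secondary against primary cells the counts were 2 higher and 6 lower in June females (background 25% and 24.3%), 6 and 5 in June males (30.7% and 28.9%) and 5 and 4 in October females (18.3% and 17.2%). In October males 2 were lower, IL11RA and OSMR (background 7.63%). Medians lay between -0.38 and 0.14 over the 12 pairwise comparisons. The plot of receptor means shows these levels by group.

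**Figure D4:**
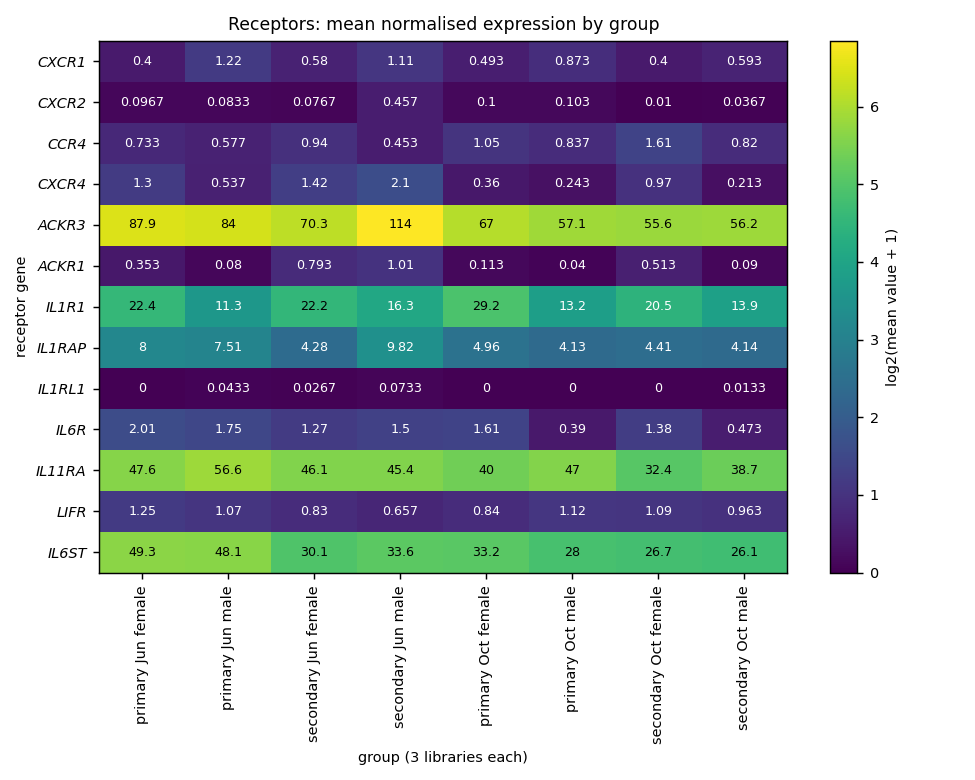
Mean signal (n = 3 libraries, log scale) of 13 receptor genes in the 8 groups. ACKR3, IL11RA and IL6ST stay above 24 in every library, IL1RL1 and CXCR2 stay under 1, and CXCR4 is highest in secondary June males.

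Other chemokines were mostly at low values. Of 30 listed, 18 matched a row and 7 were tested, and those with the highest mean were CXCL16 (15.1), CCL26 (2.21) and CCL5 (1.92). CXCL16, a membrane-bound chemokine, fell from June to October in both secondary groups and in primary males (-0.98 to -0.47). CCL5, a T cell chemokine, was higher in secondary cells of June males (0.77) and October females (1.03), lower in those of June females (-0.63), and fell over the months in all 4 comparisons (-2.03 to -0.36). CCL26, an eosinophil chemokine, was highest in primary June males, at 5.32 on average, and lower in secondary June males (-1.31). Of the 7 tested, at most 3 were called in 1 direction in any pairwise comparison, namely 3 lower in secondary than in primary June females (background 24.3%) and 3 lower in October in primary males (background 29.5%).

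Of 29 other cytokines listed, 28 matched and 14 were tested, led by MIF (431.9), CSF1 (83.1) and IL18 (57.8). CSF1, the growth factor of macrophages, fell from June to October in all 4 comparisons (-0.88 to -0.20) and was lower in secondary cells in 3 of 4 (-0.49 to -0.30). IL18, a relative of IL1A, fell over the months in secondary females, secondary males and primary males (-0.74, -1.30 and -0.96). MIF differed by at most 0.32 in size, in secondary females over the months (-0.32). IL1B, the inflammatory relative of IL1A, reached at most 0.11, and TNF at most 0.24. Among the 14 tested, the most calls in 1 direction were 7 lower in October in secondary males (background 31.2%).

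Of 18 signalling genes listed, 17 matched and were tested, among them PTPN11 and JAK1, with means of 86.6 and 79.2. JAK1, a kinase of the IL6ST receptors, fell over the months in secondary males (-0.34), primary males (-0.30) and primary females (-0.18). Of the 17, 6 were higher in secondary than in primary June males (background 30.7%) and 9 were lower (background 28.9%).

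The genes most like each of the 9 in pattern were found by Pearson's r of log2(value + 1) over the 24 libraries. The search covered 9991 tested genes with a mean of at least 5 in some group. Genes without a symbol, or with one starting with LOC, were left out. The r values are descriptions, since the libraries share 8 groups and r mainly follows the group means. For CXCL14, r rests on values near the lower end of those deposited. CXCL8 was followed by ID2 (0.967), GSTM3 (0.965) and PRDX1 (0.963), and IL6 by SLC20A1 (0.966), HSPA5 (0.957) and TMEM100 (0.949). HSPA5 is a chaperone of the endoplasmic reticulum. IL1A was followed by NFKBIA (0.950), the inhibitor of NF-kB and one of its target genes, then by TP53INP2 (0.920) and RARRES1 (0.913), and IL33 by SFRP1 (0.957), a secreted Wnt inhibitor, KCTD20 (0.957) and PAPPA (0.943). LIF was closest to SLCO3A1 (0.952), DYSF (0.932) and CTSS (0.928). Lower values were found for CCL17 with LY6G6C (0.922), SH3YL1 (0.866) and DMRT2 (0.853), for CXCL14 with MOCS3 (0.881), MMP1 (0.867) and KCNK1 (0.865), for IL11 with ZFP36L1 (0.851), MASP1 (0.844) and FYN (0.837), and for CXCL12 with MOG (0.834), TSPYL1 (0.831) and GIGYF1 (0.822).

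Chemokines and cytokines are also made by cells other than papilla cells, so marker lists of other skin cell types were summed in each library. PTPRC, which marks all white blood cells, stood at 0 in 22 of 24 libraries and at most at 0.02. The summed signal of 9 matched immune markers of 11 was 35.57 to 42.21 in secondary June males, the group with the most CXCL8 and IL6, and 10.85 to 25.56 in the other 7 groups. CD68 and CD14, which fibroblasts can also express, made up most of it. In secondary June males PTPRC was 0 in every library and ITGAM averaged 0.04, while CD207, a Langerhans cell marker, averaged 0.87 against 0.01 to 0.59 in the other groups. The 3 immune markers that reached the level for testing were all called higher in secondary than in primary June males (background 30.7%). CD68 differed by 1.13, CD14 by 0.88 and CSF1R by 0.42. The part of these markers' cells in the CXCL8 and IL6 differences was not tested.

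The endothelial sum, of 6 markers, was 2.44 to 2.86 in secondary June males and 0.34 to 1.19 elsewhere, led there by PECAM1 at 2.00, while CDH5 averaged 0.00 in that group. The keratinocyte sum was 3.59 to 5.31 in secondary June cells and primary June females, 27.17 to 64.98 in primary June males, both primary October groups and secondary October males, and 273.2 to 299.0 in secondary October females. KRT1 was listed at 0 in 22 of 24 libraries. IL33, which keratinocytes can make, averaged 11.5 ± 1.77 (SD, n = 3) in primary June females, where the keratinocyte sum was 4.46 to 5.31, and 10.7 ± 2.44 in secondary October females. The part of keratinocytes in the IL33 differences was not tested. Melanocyte markers summed to 1.92 to 4.78 over all libraries and pericyte and smooth muscle markers, ACTA2 included, to 4358 to 8051, and their part in the results was not tested.

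**Figure D5:**
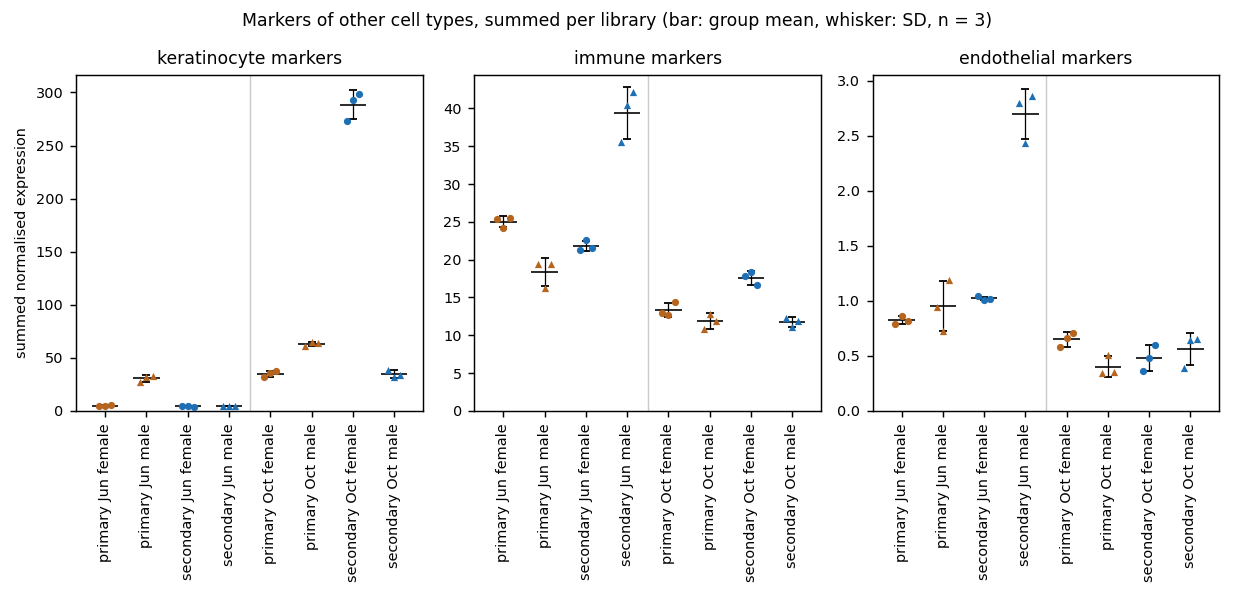
Summed signal of keratinocyte, immune and endothelial markers in each of the 24 libraries; bars are group means and whiskers SD (n = 3), with colours and shapes as for the 9 genes. Secondary October females have the highest keratinocyte sum (273.2 to 299.0), and secondary June males the highest immune (35.57 to 42.21) and endothelial (2.44 to 2.86) sums.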

How the data were processed

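RNA of papilla cells was sequenced in 24 libraries, 3 per group. RNAiso Plus served for extraction and an NEBNext Ultra kit for paired-end libraries, per the labels' protocols. The tools were kallisto 0.46.1 and sleuth 0.30.0, per the submitters' processing notes. The genome build, the transcript set and the filters were not given in the sources used here. What the authors deposited is a normalised signal, 1 value per gene and library, and not a count, so no counting interval is given. IDs of 20294 of 20326 genes were found in a RefSeq table (ARS1.2), used for names only.

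The 13049 genes at 1 or more in at least 3 libraries were fitted with limma 3.58.1 under R 4.3.3 (with statmod 1.5.0) on log2(value + 1), with 1 mean per group, a variance trend and robust estimation. There were 12 pairwise comparisons and 6 interactions, with Benjamini-Hochberg adjustment over all tested genes. The fit was tested on simulated data. Genes named are the 9 matched, their receptors, the 3 of each pathway list with the highest mean, and the 3 most like each of the 9, plus IL1RN, IL1B and TNF from the cytokine list, chosen after their values were seen. A gene that this rule names is not reported here. The 9 genes and the lists were chosen with earlier results of these data known. Alternatives were another pseudocount, filters, scalings, a spread without robust estimation, fits of the compared groups alone, a replicate block, and each library left out. Counts without CXCL14 were added after seeing the data.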

Additional observations from a re-analysis of the deposited data

Results flagged for a closer look

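The log2 difference itself differed between sexes or follicle types, by an interaction in the limma fit of all 24 libraries, in 37 of the 54 cases of 9 genes and 6 interactions. Of all tested genes, 26.7% to 43.9% were called in these interactions. The 37 include CXCL14, which passed the filter only through its high groups. Without CXCL14, 5 or 6 of 8 genes were called in each interaction. For secondary against primary cells in June, the male minus female difference was 2.99 for CXCL8, -1.53 for CCL17, 2.16 for CXCL12, 0.88 for CXCL14, 2.75 for IL1A, 3.98 for IL6 and 1.39 for IL11 (adjusted p 8.59e-13 to 0.00388). In October it was 2.49 for CCL17, 0.59 for CXCL12, -1.14 for CXCL14, -1.03 for IL1A, -1 for IL6 and -0.79 for LIF (adjusted p 1.16e-05 to 0.0159). The CXCL12 value was lost without secondary October female replicate 2 (0.41, adjusted p = 0.0529).

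For October against June in secondary cells, the male minus female difference was -1.70 for CXCL8, -1.53 for CXCL14, -1.03 for IL1A, -2.14 for IL6, -0.93 for IL11 and -0.94 for LIF (adjusted p 2.03e-08 to 0.00117). In primary cells it was 1.5 for CXCL8, -3.72 for CCL17, 1.22 for CXCL12, 0.49 for CXCL14, 2.75 for IL1A and 2.83 for IL6 (adjusted p 8.89e-13 to 0.0362). The CXCL14 value of 0.49 was lost without any 1 of 7 libraries, primary June female replicate 1, primary June male replicates 1 and 3, primary October female replicates 2 and 3 or primary October male replicates 2 and 3 (adjusted p 0.0574 to 0.104).

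The October minus June change was larger or smaller in secondary than in primary females by -3.14 for CCL17, 1.12 for CXCL14, 3.58 for IL1A, 1.02 for IL6, 2.32 for IL33 and 0.86 for LIF (adjusted p 1.15e-14 to 0.000586). In males the corresponding values were -3.09 for CXCL8, -1.70 for CXCL12, -0.90 for CXCL14, -3.95 for IL6, -0.97 for IL11 and 2.20 for IL33 (adjusted p 7.01e-13 to 0.000639).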

How the results depend on the processing

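Over 162 results, 9 genes in 18 comparisons, no direction of a called result reversed under any alternative run. Of the 111 calls, 95 held under every alternative in which the gene was tested. These counts include CXCL14, which passed the filter only through its high groups, so its part in them is a description only. Scaling each library to a common total of 1000000 gained 6 calls and lost none, and median-of-ratios factors changed none. A pseudocount of 0.1 lost 2 and gained 3, no filter lost 3, a spread without robust estimation lost 2, and the filter on 6 libraries, which leaves CXCL14 untested, changed none. Fits of the compared groups alone lost 2 and gained 4, and lowered the genes called for secondary against primary October females from 4628 to 2686. The count also fell for October against June primary females (6295 to 4424) and for males against females in primary October cells (4382 to 2948). In the other comparisons it moved less, up in some and down in others. The cause was not tested. Leaving out each of the 24 libraries in turn lost 74 calls and gained 24 in all, and the count of the 9 genes called for males against females in primary October cells, 4, ran from 2 to 5. The other counts of the 9 genes stayed within 1.5 times, also without CXCL14, an alternative chosen after seeing the data.

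In none of the 12 comparisons were all same-number deviations correlated above 0.1. With 3 libraries per group, this threshold cannot decide whether replicate numbers paired the libraries. For secondary against primary June females, same-number correlations (0.035 to 0.16) lay above those of other numbers (-0.135 to 0.012). In every other pairwise comparison the 2 ranges overlapped. With a replicate block more genes were called in every comparison, as in June females by follicle type (6623 against 6435). The cause was not tested. A replicate block lost 2 calls (IL33 in primary June cells, adjusted p = 0.0518, and CXCL8 in primary October cells, adjusted p = 0.0533, males against females) and gained 2 (IL1A, secondary against primary June males, 0.0495, and CXCL12, males against females in primary October cells, 0.0404).

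With the common total the share of called genes that were higher moved by over 10 points in 11 of 18 comparisons. For secondary against primary cells it went from 51.5% to 64.2% in June males and from 58.7% to 26.9% in October males. For October against June it went from 44.8% to 31.4% in secondary and 46.9% to 60.9% in primary males. For males against females in secondary cells it went from 52.8% to 67.4% in June and 48.3% to 36.3% in October. For the sex differences it went from 50.6% to 67.5% (follicle type, June), 51.3% to 33.9% (October), 45.8% to 28.3% (month, secondary) and 48.2% to 60.8% (primary), and for follicle type by month in males from 49.2% to 23.9%. The median of all genes then stood at -0.17 in the last and -0.12 in the sex difference of month in secondary cells. Depth is unknown, which limits what can be said of low values such as CXCL14.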
